A study of Mus musculus with 13 samples.

Results

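Type I interferon signalling in mouse melanoma cells was followed through 9 genes, which are the receptor chains Ifnar1 and Ifnar2, the kinases Jak1 and Tyk2, and the transcription factors Stat2, Irf9, Irf7, Irf1 and Irf3. They were chosen by symbol, by matching the Ensembl identifiers of the deposited table to the GENCODE annotation of the mouse genome build GRCm38, and all 9 were found among the 54532 genes of the table. All groups were YUMM1.7 cells, an established mouse melanoma line labelled WT for genotype. Total RNA depleted of ribosomal RNA came from cells given the vehicle DMSO, from cells given 10 μM ADAR1i-124 for 12 h, and from cells given 1 μM 5-AZA-CdR for 72 h. ADAR1i-124 is a small molecule made by the study to inhibit ADAR1, the enzyme that converts adenosine to inosine in double-stranded RNA, and 5-AZA-CdR (decitabine) inhibits DNA methyltransferases. RNA of cells with the same treatments, and of cells given both compounds (the combination), was digested with RNase I and DNase and precipitated with the antibody J2, raised against double-stranded RNA, or with Z22, raised against Z-form nucleic acid. A precipitation with IgG served as the control. For the combination the labels give no doses, and the study describes it as 1 μM 5-AZA-CdR for 72 h with 10 μM ADAR1i-124 added afterwards for 12 h, but it also names a combination with 1 μM ADAR1i-124, so the dose of these libraries is not certain. For IgG the sources used here do not say how the cells were treated. Of 13 libraries, 12 were read (3 of total RNA, 4 with J2, 4 with Z22 and 1 with IgG), because in total RNA of the combination the counts follow the opposite strand. Every condition has 1 library, so no difference below has a replicate check and no test was run. Intervals are at 95% and cover counting error only, so they leave out variation between libraries. Copies of the same molecule cannot be told from separate molecules in these counts, so the intervals may be too narrow even for counting error.

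Type I interferons bind a receptor of 2 chains, IFNAR1 and IFNAR2, whose cytoplasmic parts carry the kinases TYK2 and JAK1. The activated kinases phosphorylate STAT proteins, and STAT2 joins IRF9 and a further STAT to form ISGF3, which binds the interferon-stimulated response element (ISRE) before interferon-stimulated genes. IRF3 and IRF7 act upstream, where they are activated by sensors of viral or self RNA and switch on the interferon genes, while IRF1 is a factor best known as a target of interferon-gamma through the gamma-activated sequence (GAS). STAT2, IRF9 and IRF7 are products of interferon-stimulated genes themselves, so the pathway can raise its own components.

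The library totals ran from 8167960 to 34571822 counts. At these totals 3 counts, the smallest number taken as detected, correspond to 0.0868 to 0.367 CPM (counts after each library total was set to 1e+06). The Z22 library of DMSO-treated cells stood apart, since the single gene Gm42418 took 34.9% of its counts against 10.6% to 15.8% of the other Z22 libraries and 14.2% of the IgG library. The labelled cell type could be checked only in part, because 5 of the 7 melanocyte markers (Sox10, Tyr, Tyrp1, Dct and Mlana) were under 3 counts in every total RNA library, and the sum of all 7 was 20.5 to 33.6 CPM there. Fibroblast markers summed to 69.7 to 669 CPM in total RNA, 23.1 to 413 CPM in J2 RNA and 27.7 to 1132 CPM in Z22 RNA, with Thy1 under 3 counts in every total RNA library. The other marker lists reached 78.1 CPM for leukocytes, 83.2 CPM for endothelium and 4.14 CPM for epithelium in total RNA. The Y-linked genes Ddx3y and Kdm5d, named after their values were seen, also differed between libraries of this 1 line. Ddx3y had 3.35 CPM with DMSO, 48.9 CPM with ADAR1i-124 and 36.7 CPM with 5-AZA-CdR in total RNA, but 26.3, 1.46 and 1.35 CPM in the J2 libraries of the same treatments. How far these differences between libraries contribute to any value below was not tested. In bulk RNA, fewer expressing cells and less RNA per cell cannot be told apart.

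The starts of the 4 genes that were lowest with ADAR1i-124 are shown because the known binding sites of the pathway lie in such regions. All 9 genes matched the RefSeq promoter table of GRCm38.p6, whose windows hold 250 bases before and 50 bases after an annotated start, with 2 windows each for Irf9 and Irf1. Each window was searched on both strands for GAAANNGAA, a pair of ISRE half-sites, and for TTCNNNGAA, the palindromic core of the GAS. Capitals below mark a match. The windows are Stat2 at chr10:128270248-128270547 (forward strand), Irf9 at chr14:55603735-55604034 (forward, the first of its 2 windows), Irf7 at chr7:141266375-141266674 (reverse) and Irf1 at chr11:53769764-53770063 (forward, the first of its 2 windows), each written 5′ to 3′ on the strand of the gene. The RefSeq start of Irf9 lies inside the gene as GENCODE annotates it.
Stat2: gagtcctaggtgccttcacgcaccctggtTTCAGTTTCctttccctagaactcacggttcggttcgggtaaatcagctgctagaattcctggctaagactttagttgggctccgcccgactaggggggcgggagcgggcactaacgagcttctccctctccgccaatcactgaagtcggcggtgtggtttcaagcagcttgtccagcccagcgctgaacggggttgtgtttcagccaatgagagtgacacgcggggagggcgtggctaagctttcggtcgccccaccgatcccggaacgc
Irf9: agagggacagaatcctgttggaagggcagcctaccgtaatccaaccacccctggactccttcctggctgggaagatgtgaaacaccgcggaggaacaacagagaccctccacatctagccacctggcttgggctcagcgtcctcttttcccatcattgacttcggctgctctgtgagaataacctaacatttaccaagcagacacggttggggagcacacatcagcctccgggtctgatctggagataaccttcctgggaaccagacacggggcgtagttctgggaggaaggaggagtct
Irf7: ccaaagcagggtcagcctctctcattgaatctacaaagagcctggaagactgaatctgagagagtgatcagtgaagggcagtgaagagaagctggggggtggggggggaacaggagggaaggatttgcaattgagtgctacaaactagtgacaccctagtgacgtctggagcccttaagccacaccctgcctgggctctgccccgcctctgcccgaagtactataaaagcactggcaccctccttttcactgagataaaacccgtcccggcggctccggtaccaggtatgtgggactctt
Irf1: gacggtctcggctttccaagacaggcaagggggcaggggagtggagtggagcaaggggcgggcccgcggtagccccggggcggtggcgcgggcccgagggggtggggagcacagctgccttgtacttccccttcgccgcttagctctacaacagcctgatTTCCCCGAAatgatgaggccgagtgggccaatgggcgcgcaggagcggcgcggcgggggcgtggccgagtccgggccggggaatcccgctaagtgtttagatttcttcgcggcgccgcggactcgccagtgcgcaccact
The Stat2 window holds 1 match to the ISRE pair, read on the opposite strand as TTCAGTTTC and beginning at position −221 from the start. The first Irf1 window holds the GAS core TTCCCCGAA, beginning at −90. Neither motif occurs in the windows of Irf9 and Irf7, which says only that these letters are not in these 300 bases. Among the other members, Ifnar1 has the GAS core TTCACGGAA beginning at −5 and Ifnar2 has TTCCTGGAA beginning at −214, while the windows of Jak1, Tyk2 and Irf3 hold neither motif. No window held both motifs, so no matches overlap. Of all 32851 promoter windows in the table, 8.56% hold the ISRE pair and 8.30% the GAS core, and a match is a description of the sequence and not a bound site.

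Irf7, Stat2, Irf9 and Irf1 were lower in the ADAR1i-124 library than in the DMSO library of total RNA, while the receptor chains, both kinases and Irf3 stayed within 2-fold. Of the 9 genes, 4 were at least 2-fold lower, where 8.7% of the 13693 genes that averaged 1 CPM or more over both libraries were, and 0 were at least 2-fold higher, against 7.71% of all genes. Changes are differences of log2(CPM + 0.5), a scale on which low genes change less than their plain ratio, and the median over all genes was −0.09. The median over the members was −0.19, with 5 of the 9 between −0.19 and 0.63 and the other 4 far below.

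Irf7 (ENSMUSG00000025498, chromosome 7, 141262706 to 141266481, reverse strand) codes for the factor that amplifies interferon production. It had 1422 counts with DMSO (83.6 CPM), 15 counts with ADAR1i-124 (0.851 CPM) and 7784 counts with 5-AZA-CdR (225 CPM). The ADAR1i-124 level was thus 1.02% of the DMSO level. The log2 change was −5.96 with the added 0.5 CPM, and the interval of the plain ratio ran from −7.34 to −5.89. By this change Irf7 stood 14th from the lowest among the 13693 genes. Its neighbour Phrf1, whose exons overlap it by 45 bases on the other strand, had 1588 counts with DMSO and 2393 with ADAR1i-124, so the overlapping gene did not share the low value.

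Stat2 (ENSMUSG00000040033, chromosome 10, 128270559 to 128292849, forward strand) codes for the transactivating subunit of ISGF3. Its level was 195 CPM with DMSO, 11.98 CPM with ADAR1i-124 and 246 CPM with 5-AZA-CdR. With ADAR1i-124 this was a log2 change of −3.97 (−4.22 to −3.82), the 59th lowest of all genes compared. Irf9 (ENSMUSG00000002325, chromosome 14, 55603571 to 55610030, forward strand), the DNA-binding subunit of ISGF3, had 87.5, 10.2 and 80.0 CPM in the same order. Its log2 change with ADAR1i-124 was −3.04 (−3.32 to −2.88). Both subunits that are particular to ISGF3 were therefore low in the same library, at 6.16% and 11.7% of the DMSO level. Irf9 shares 123 exon bases with Rnf31 on the same strand, and reads there could be counted to either gene. Rnf31 had 508 counts with DMSO and 339 with ADAR1i-124.

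Irf1 (ENSMUSG00000018899, chromosome 11, 53770014 to 53778374, forward strand) had 47.1 CPM with DMSO, 13.1 CPM with ADAR1i-124 and 55.4 CPM with 5-AZA-CdR. The change with ADAR1i-124 was −1.81 (−2.06 to −1.64), the smallest of the 4 and the 351st lowest of all genes. Irf3 (ENSMUSG00000003184, chromosome 7, 44997648 to 45002848, forward strand), the factor that is present before stimulation and activated by phosphorylation, went the other way. It had 25.4 CPM with DMSO, 37.8 CPM with ADAR1i-124 and 43.3 CPM with 5-AZA-CdR, and its change with ADAR1i-124 was 0.56 (0.40 to 0.75). Bcl2l12, which shares 88 exon bases with Irf3 on the other strand, had 109, 216 and 387 counts in these libraries, so both genes of this overlap were higher. The intervals of Irf1 and Irf3 lie on opposite sides of 0, so within the IRF genes the ADAR1i-124 library was not uniformly low.

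The receptor chains and Jak1 differed little with ADAR1i-124, and Tyk2 was higher. Ifnar1 (ENSMUSG00000022967, chromosome 16, 91485238 to 91507441, forward strand) had 73.5 CPM with DMSO and 82.9 CPM with ADAR1i-124. Ifnar2 (ENSMUSG00000022971, chromosome 16, 91372783 to 91405589, forward strand) had 16.5 and 18.6 CPM, and its interval, −0.06 to 0.40 on the log2 scale, includes 0. Both chains of the receptor were thus close to their DMSO level. The kinase of the IFNAR2 chain, Jak1 (ENSMUSG00000028530, chromosome 4, 101152367 to 101265282, reverse strand), had 330.0 and 289 CPM, a change of −0.19 (−0.25 to −0.14). Tyk2 (ENSMUSG00000032175, chromosome 9, 21104068 to 21131243, reverse strand), the kinase of the IFNAR1 chain, had 18.9 and 29.4 CPM, the largest rise among the members at 0.63 (0.44 to 0.84). Jak1 and Tyk2 are partners in the receptor complex, and their values differed in direction.

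5-AZA-CdR gave another pattern, in which Tyk2, Irf7 and Ifnar1 were at least 2-fold higher than with DMSO. These are 3 of the 9 genes, where 17% of the 14391 genes compared were at least 2-fold higher, and 0 of the 9 were at least 2-fold lower, against 8.96% of all genes. The member median was 0.76, against 0.06 over all genes. Tyk2 rose most, from 18.9 to 65.9 CPM (log2 change 1.78, 1.64 to 1.97). Irf7 followed with 1.42 (1.35 to 1.51) and Ifnar1 with 1.03 (0.95 to 1.13), from 73.5 to 151 CPM. Ifnar1 lay at the 2-fold line and fell under it with TMM scaling (0.99) and with DESeq2 size factors (0.95). Its partner chain Ifnar2 had 0.92 (0.75 to 1.13), so both receptor chains were higher by about the same factor. Irf3 had 0.76 (0.61 to 0.92). The genes that were lowest with ADAR1i-124, other than Irf7, were close to the DMSO level, with 0.34 for Stat2, 0.23 for Irf1 and −0.13 for Irf9 (−0.22 to −0.04). Both comparisons share the DMSO library, and the cells of the 5-AZA-CdR library had been treated for 72 h and those of the ADAR1i-124 library for 12 h. Fibroblast markers moved in total RNA too. With 5-AZA-CdR 4 of the 4 that passed the minimum were at least 2-fold higher, and with ADAR1i-124 2 of 3 were. None that passed it was at least 2-fold lower in either comparison. Of the leukocyte and endothelial markers, 1 each passed the minimum, and these were Cd68 (1.18 with ADAR1i-124 and 3.11 with 5-AZA-CdR) and Cdh5 (2.12 and 4.28). The epithelial markers Krt8 and Krt18 were at 0 counts with DMSO and with ADAR1i-124 and had 72 and 64 counts with 5-AZA-CdR. The part of any of these markers in the members' values was not tested.

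**Figure D1:**
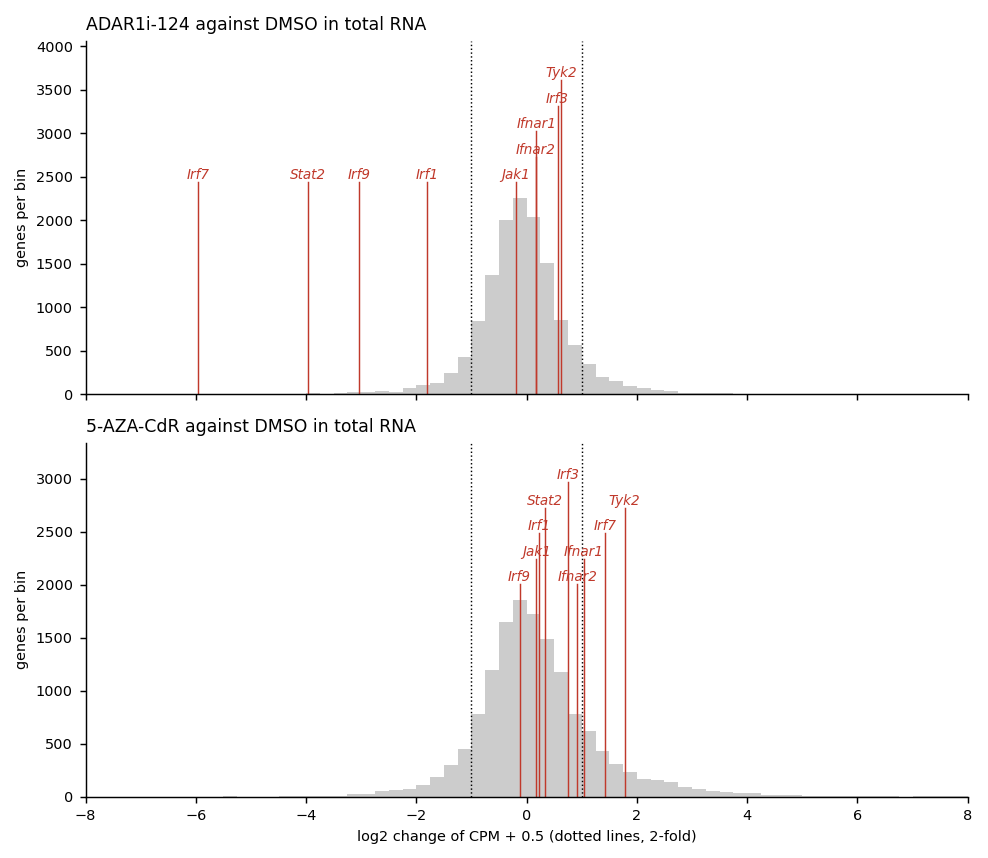
Grey bars count all compared genes by log2 change of CPM + 0.5 (horizontal axis, bins of 0.25) in total RNA, for ADAR1i-124 (top) and 5-AZA-CdR (bottom) against DMSO, and red lines mark the 9 members. With ADAR1i-124, Irf7, Stat2, Irf9 and Irf1 lie between −5.96 and −1.81, left of the dotted 2-fold line, and with 5-AZA-CdR the 9 members lie between −0.13 and 1.78.

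Levels of different genes were compared per exon length, as RPKM (CPM per kilobase of exon, with the union of exons of the annotation). With DMSO the order was Jak1 at 45.7 RPKM, Stat2 at 32.8, Irf7 at 22.1, Irf9 at 16.2, Ifnar1 at 12.4, Irf1 at 11.9, Irf3 at 7.39, Ifnar2 at 4.96 and Tyk2 at 2.75 RPKM. Among neighbours in this order, only the counting intervals of Ifnar1 and Irf1 meet. With ADAR1i-124 Irf7 went from the third place to the last, at 0.225 RPKM (0.126 to 0.372), behind Irf9 at 1.90 and Stat2 at 2.02, whose intervals meet. Jak1 stayed first at 39.9 RPKM, and Ifnar1 (13.95) and Irf3 (10.98) came next, so the receptor and Irf3 outranked the ISGF3 subunits in that library. With 5-AZA-CdR Irf7 was first at 59.6 RPKM (58.3 to 61.0), above Jak1 at 51.7 and Stat2 at 41.4. Irf9 and Irf1 (14.8 and 13.9) met in that library, as did Tyk2 and Ifnar2 (9.61 and 9.53). The exon union of Irf9 includes the 123 bases shared with Rnf31.

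**Figure D2:**
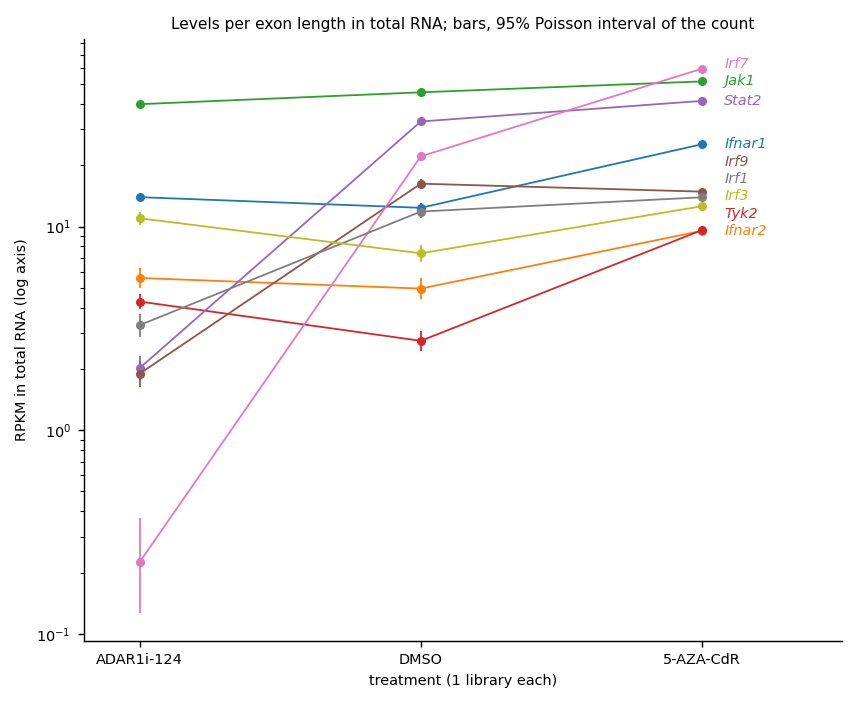
Points give RPKM in total RNA on a log axis for ADAR1i-124, DMSO and 5-AZA-CdR (1 library each), bars are 95% Poisson intervals of the count, and lines join the values of 1 gene. Irf7 spans 0.225 to 59.6 RPKM, whereas Jak1 stays between 39.9 and 51.7 RPKM.

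Other genes of the pathway in total RNA were described from lists of related genes. None of the 18 type I interferon genes passed the minimum of 1 CPM, and the ligand Ifnb1 had 3, 0 and 6 counts with DMSO, ADAR1i-124 and 5-AZA-CdR, at or near the smallest number taken as detected. Among 15 inhibitors of the pathway, 1 was at least 2-fold lower with ADAR1i-124 and 1 higher, where 8.7% and 7.71% of all genes were. The lower one was Usp18, a protease that removes ISG15 and blocks IFNAR2 signalling, with 126 CPM with DMSO and 0.681 CPM with ADAR1i-124 (−6.74, with an interval of the plain ratio from −8.34 to −6.72). The higher one was Cish, a SOCS family member, with 2.17 and 8.06 CPM (1.68). With 5-AZA-CdR 3 inhibitors were higher and 0 lower, against 17% and 8.96% of all genes, so in neither comparison do these counts set the list apart from all genes. The 3 were Socs3 (3.13), Cish (2.10) and Socs1 (1.55), which bind activated receptors or JAK kinases.

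Among 13 adaptors and kinases that activate IRF3 and IRF7, 1 was at least 2-fold lower with ADAR1i-124, Tmem173 (STING), with 77.7 and 30.0 CPM (−1.36). Tbkbp1, a TBK1 adaptor, was higher (2.44), from 18 counts with DMSO to 140. With 5-AZA-CdR Tbkbp1 (3.63) and the kinase gene Ikbke (2.28) were higher and 0 of the 13 were lower. The main kinase of IRF3, Tbk1, stayed close to the DMSO level in both, at −0.06 and −0.19. Of the other IRF genes, 3 of 5 passed the minimum and 0 were past 2-fold with ADAR1i-124, while Irf5 (2.33) and Irf8 (1.31), both best known from immune cells, were higher with 5-AZA-CdR. Of 7 other JAK and STAT genes, 6 passed the minimum, 0 were past 2-fold with ADAR1i-124, and Jak3 (2.13) and Stat5a (1.15) were higher with 5-AZA-CdR. For 1 of 13 lower with ADAR1i-124 and 2 of 13 higher with 5-AZA-CdR, the shares of all genes were again 8.7% and 17%, and with so few genes a list the counts are values and not a result about the lists. The receptor chains Ifngr1, Ifngr2 and Il10rb were within 2-fold in both, with −0.86 for Ifngr1 the lowest with ADAR1i-124. Outside the members, the lower genes of these lists with ADAR1i-124 were therefore Usp18 and Tmem173.

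In J2 RNA the same 3 members were at least 2-fold lower with ADAR1i-124 as had the largest falls in total RNA. Irf7 had 127 CPM in the DMSO library, 13.3 CPM with ADAR1i-124, 403 CPM with 5-AZA-CdR and 357 CPM for both compounds. Stat2 had 186, 27.5, 237 and 287 CPM in that order, and Irf9 had 85.2, 27.9, 99.0 and 85.9 CPM. With library totals over protein-coding genes alone, or without the 20 most counted genes, 4 members rather than 3 were past 2-fold, beside 12.84% and 12.65% of all genes, since Tyk2 at −0.94 lies close to the line. In each of the 3 genes the ADAR1i-124 library was the lowest of the 4, more than 2-fold under each of the other 3. The log2 changes with ADAR1i-124 were −3.20 for Irf7 (−3.47 to −3.03), −2.73 for Stat2 (−2.91 to −2.60) and −1.60 for Irf9 (−1.78 to −1.45), and 10.8% of 13522 genes were at least 2-fold lower. Irf1, by contrast, had 30.4 CPM with DMSO and 25.0 CPM with ADAR1i-124 in J2 RNA, a change of −0.28 (−0.49 to −0.07), smaller than its change in total RNA; that difference was not tested. All 9 members were below 0 in this comparison, where the median over all genes was 0.00, and 0 were at least 2-fold higher, against 7.37% of all genes. Irf3, with −0.02 (0.02 with TMM scaling), and Jak1, with −0.13, were nearest to 0. Fibroblast markers fell in the same comparison, with 4 of 4 at least 2-fold lower and a median of −2.92. In total RNA their median with ADAR1i-124 was 2.17. Cd68 (−3.11) and Cdh5 (−1.26) were also lower in J2 RNA with ADAR1i-124. The part of these markers in the members' values was not tested.

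Tyk2 differed in direction between total RNA and J2 RNA. It was higher with ADAR1i-124 in total RNA, but in J2 RNA it had 37.2 CPM with DMSO and 19.1 CPM with ADAR1i-124, a log2 change of −0.94 (−1.18 to −0.74). With 5-AZA-CdR, where total RNA gave the largest rise of any member, Tyk2 in J2 RNA had 31.1 CPM and a change of −0.25 (−0.45 to −0.06). Tyk2 thus moved apart between total RNA and J2 RNA under both compounds, and neither difference was tested. In Z22 RNA Tyk2 had 29.1 CPM with DMSO, 26.5 CPM with ADAR1i-124, 38.9 CPM with 5-AZA-CdR and 56.0 CPM for both compounds. The antisense gene 1700084C06Rik, which shares 554 exon bases with Tyk2 on the other strand, had 0 to 3 counts in each of the 12 libraries read.

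With 5-AZA-CdR and with the combination, Irf7 was the only member at least 2-fold higher in J2 RNA than with DMSO. The changes were 1.66 (1.59 to 1.75) and 1.49 (1.41 to 1.57), and 8.61% and 8.21% of all genes were at least 2-fold higher in these comparisons. Stat2 had 0.35 and 0.63, Ifnar1 0.42 and 0.35, and Irf9 0.22 and 0.01. With either, 0 of the 9 were at least 2-fold lower, against 6% and 3.88% of all genes. All of these ratios share the J2 DMSO library. The epithelial markers Krt8 and Krt18 were at 0 or 1 count there and had 103 to 224 counts with 5-AZA-CdR and with the combination, Cdh5 was higher (2.802 and 2.786) and Cd68 lower (−1.71 and −1.67). Of 4 fibroblast markers, 2 were at least 2-fold lower with 5-AZA-CdR (lowest −5.91) and 1 with the combination (−3.52), and the part of these lists was not tested.

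In Z22 RNA the changes against DMSO depend on the scaling, and all of them share the DMSO library with 34.9% of its counts on Gm42418, whose part in the values was not tested. The median over all genes was 0.81 with ADAR1i-124, 1.06 with 5-AZA-CdR and 0.82 for both compounds, so member changes are given here both plainly and after subtracting that median. Irf7 had 136 CPM with DMSO, 35.8 CPM with ADAR1i-124, 134 CPM with 5-AZA-CdR and 315 CPM for both compounds. Stat2 had 286, 70.1, 249 and 296 CPM. Irf9 had 81.1, 32.1, 78.1 and 85.4 CPM, and Irf1 had 58.3, 28.8, 51.2 and 43.6 CPM. The ADAR1i-124 library was again the lowest of the 4 for each of these genes, and the 4 members at least 2-fold lower were those of total RNA. Irf1 was at the line, and with 2 CPM added in place of 0.5 it fell under it, leaving 3. Their plain log2 changes were −1.91 for Irf7, −2.02 for Stat2, −1.32 for Irf9 and −1.01 for Irf1, and less the all-gene median they were −2.72, −2.83, −2.13 and −1.82. Of all genes, 5.13% were at least 2-fold lower in this comparison and 42.9% at least 2-fold higher, and with TMM scaling these shares were 14.5% and 22.1%. With TMM scaling 5 members were lower, Irf3 joining at −1.08, and 1 was higher. Fibroblast markers were lower here as well, with 2 of the 3 that passed the minimum at least 2-fold lower.

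The receptor chains were low in the Z22 library of DMSO-treated cells, as were many of the genes compared. Ifnar1 had 15.9 CPM there and 59.2, 67.6 and 73.4 CPM in the libraries of ADAR1i-124, 5-AZA-CdR and both. Ifnar2 had 3.90 CPM (34 counts) there and 10.6, 14.7 and 14.8 CPM in the other 3. Both chains were thus lowest in that library, and their plain changes against it, 1.33 to 2.17, count as at least 2-fold higher in a comparison where 42.9% to 52.1% of all genes do. Less the all-gene median they were 1.05, 0.99 and 1.35 for Ifnar1 and 0.52, 0.73 and 0.98 for Ifnar2. With 5-AZA-CdR and with the combination 0 members were at least 2-fold lower by plain CPM, against 4.1% and 5.03% of all genes, and with TMM scaling 5 and 1 were, where 16.6% and 15.8% of all genes were. The 5 were Stat2, Irf9, Irf7, Irf1 and Irf3, between −1.27 and −1.01, and the 1 was Irf1 at −1.20. With the combination Irf7 was also at least 2-fold higher by plain CPM (1.21, 1.11 to 1.31), where 43.4% of all genes were, and less the all-gene median it was 0.39. Krt8 and Krt18 were at 0 counts in the Z22 DMSO library and had 42 to 102 counts with 5-AZA-CdR and with the combination. Here 2 of 3 fibroblast markers were at least 2-fold lower in both (lowest −7.61 and −4.31), 2 of 2 endothelial markers were higher (medians 1.61 and 1.66) and Cd68 was higher (1.38 and 1.77), and the part of these lists was not tested.

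**Figure D3:**
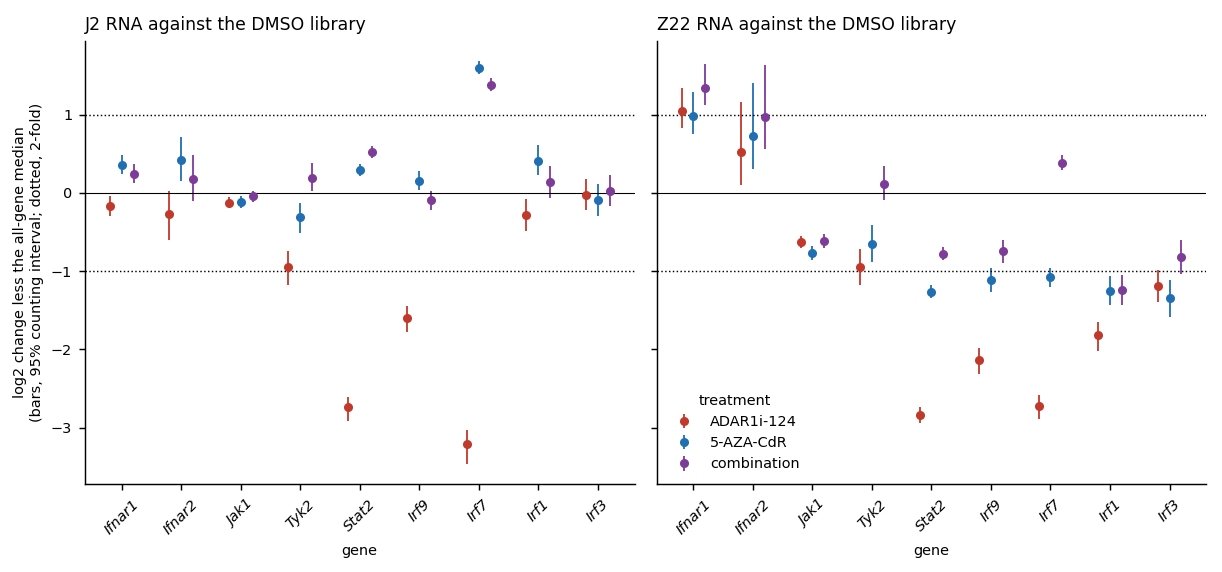
Points give each member's log2 change against the DMSO library of the same antibody, less the median over all genes, for J2 (left) and Z22 (right), 1 library per point. Bars are 95% counting intervals and dotted lines mark 2-fold. Stat2, Irf9 and Irf7 with ADAR1i-124 lie between −3.20 and −1.60 with J2 and between −2.83 and −2.13 with Z22.

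Against IgG, Irf7, Stat2 and Tyk2 gave the highest ratios in the precipitated libraries other than those of ADAR1i-124. The IgG library had 56.5 CPM of Irf7, 95.8 CPM of Stat2, 54.0 CPM of Irf9 and 16.0 CPM of Tyk2. These IgG levels lie above those of the ADAR1i-124 library of total RNA for Irf7, Stat2 and Irf9 and below those of the DMSO library. In J2 RNA the log2 ratio of Irf7 was 1.16 for DMSO, −2.04 for ADAR1i-124, 2.82 for 5-AZA-CdR and 2.65 for both compounds. Stat2 had 0.95, −1.78, 1.30 and 1.58, and Tyk2 had 1.19, 0.25, 0.94 and 1.50. Members at least 2-fold higher than IgG numbered 2 of 9 for DMSO, 0 for ADAR1i-124, 2 for 5-AZA-CdR and 3 for both compounds, where 13.5%, 5.63%, 13% and 17.9% of all genes were. Irf7 and Stat2 were at least 2-fold lower than IgG with ADAR1i-124, against 4.46% of all genes, and 0 members were with DMSO, 5-AZA-CdR or the combination, against 8.97%, 5.57% and 7.98%. The ratio follows the level in the cells as well as the precipitation, and the treatment behind IgG is not known, so a ratio cannot be read as enrichment alone. Cell type markers also differed from IgG in J2 RNA. The fibroblast markers that passed the minimum had medians of 2.20, −1.39, 1.29 and 2.17 for DMSO, ADAR1i-124, 5-AZA-CdR and both, and the 2 epithelial markers that passed it had medians of 4.796 and 4.29 in the last 2 libraries. The highest endothelial marker was at 4.26 with 5-AZA-CdR, and the part of these lists was not tested.

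With Z22 the ratio of Irf7 to IgG was 1.26 for DMSO, −0.65 for ADAR1i-124, 1.24 for 5-AZA-CdR and 2.47 for both compounds. ADAR1i-124 alone was the lowest with both antibodies, while the highest was 5-AZA-CdR alone with J2 and the combination with Z22. For Stat2 they were 1.57, −0.45, 1.37 and 1.62, and for Tyk2 0.84, 0.71, 1.26 and 1.78. Those at least 2-fold higher numbered 2, 0, 3 and 3 of 9 in the 4 libraries, and the shares of all genes were 11.3%, 7.15%, 21.4% and 17%. The 3 with 5-AZA-CdR and with the combination were Irf7, Stat2 and Tyk2 in both. Ifnar1 (−1.90) and Ifnar2 (−1.72) were at least 2-fold lower than IgG in the Z22 DMSO library, where 45.4% of all genes were, and 0 members were lower in the other Z22 libraries, against 1.85%, 5.13% and 10.7%. With TMM scaling 6 members rather than 2 were at least 2-fold higher in the Z22 DMSO library, beside 21.03% of all genes, and with 5-AZA-CdR 1 member rather than 3, beside 14.53% of all genes. Jak1 and Irf3 stayed near IgG in the 4 J2 libraries, between −0.16 and 0.03 and between 0.05 and 0.22. With TMM scaling these ranges were −0.23 to −0.12 and −0.08 to 0.02, so the signs of the small ratios depend on the scaling. Fibroblast markers against IgG had medians of 3.72, 0.52, −0.28 and 0.76 in the 4 Z22 libraries, with a highest value of 6.35 for DMSO, and epithelial markers had 4.33 and 3.32 in the last 2, and the part of these lists was not tested.

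**Figure D4:**
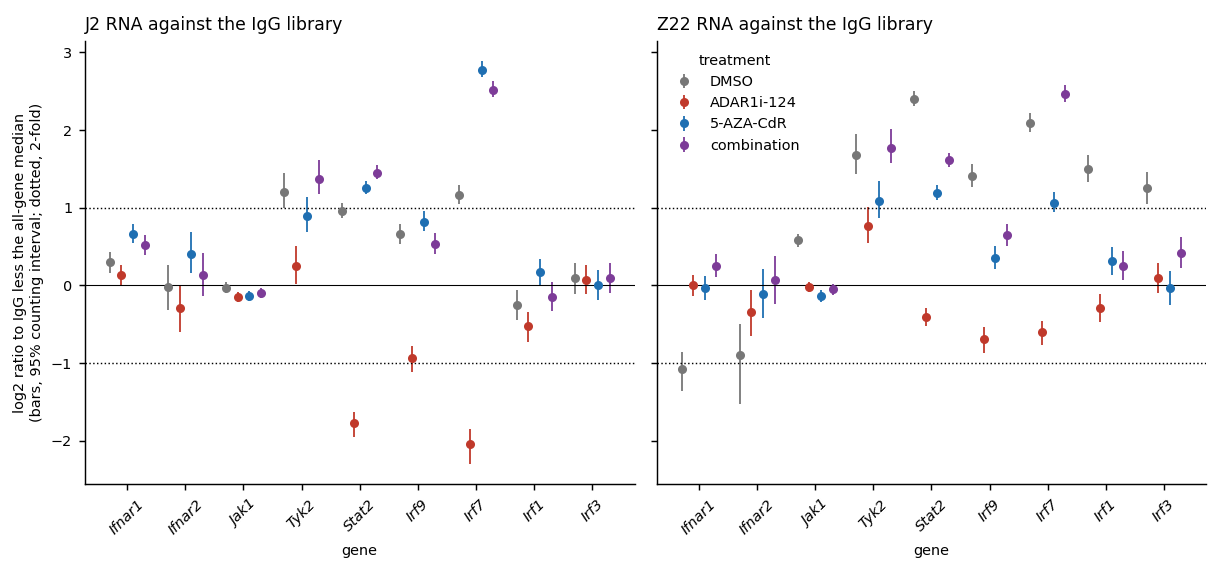
Points give each member's log2 ratio to the IgG library, less the median over all genes, for J2 (left) and Z22 (right) and the 4 treatments, with 95% counting intervals. Irf7 and Stat2 with ADAR1i-124 are below 0 with both antibodies, at −2.04 and −1.78 with J2 and at −0.61 and −0.40 with Z22.

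In J2 RNA the members in the combination lay near their levels with 5-AZA-CdR alone, as did nearly all genes, whereas Irf7, Stat2 and Irf9 with ADAR1i-124 alone lay far below both. In J2 RNA, 0 of 9 members were at least 2-fold higher or lower in the combination than with 5-AZA-CdR alone, where 1.44% and 0.641% of all genes were, and the largest difference was Tyk2 at 0.56 (0.38 to 0.75). Irf7 was −0.18 (−0.24 to −0.12) in that comparison. Against ADAR1i-124 alone, 4 members were at least 2-fold higher in J2 RNA, where 14.3% of all genes were, and these were Irf7 (4.69, 4.53 to 4.95), Stat2 (3.36, 3.23 to 3.53), Irf9 (1.61) and Tyk2 (1.25). Cell type markers were higher as well, from 3.13 to 59.6 CPM for Cdh5, from 0 to 12.5 CPM for Krt8, from 4.17 to 26.4 CPM for Pdgfra and from 6.46 to 18.4 CPM for Cd68, and their part was not tested. In Z22 RNA the same 4 were at least 2-fold higher than with ADAR1i-124 alone, at 3.12 for Irf7, 2.07 for Stat2, 1.40 for Irf9 and 1.06 for Tyk2, where 9.91% of all genes were. Tyk2 is at the line, with 0.99 by TMM scaling. The same markers had 3.68 and 23.8 CPM (Cdh5) and 0.136 and 4.59 CPM (Krt8) in Z22 RNA. Pdgfra had 13.03 and 15.4 CPM there and Cd68 13.03 and 53.2 CPM. Other fibroblast markers went both ways in Z22 RNA, with 114 and 52.7 CPM for Col1a2 and 1.64 and 20.9 CPM for Col1a1. Against 5-AZA-CdR alone, Z22 RNA gave 1 member at least 2-fold higher, Irf7 at 1.23 (1.13 to 1.33), and 2.28% of all genes were. Irf7 thus had 134 CPM with 5-AZA-CdR and 315 CPM when both compounds were given in Z22 RNA, but 403 and 357 CPM in J2 RNA. In these 4 comparisons 0 of the 9 were at least 2-fold lower, against 5.64% and 0.641% of all genes in J2 RNA and 6.3% and 7.11% in Z22 RNA. Whether the combination has the ADAR1i-124 dose of the single treatment is not certain, since the labels do not give it and the study names a pair of doses.

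Across all 12 libraries the members differed in how far their levels ranged. The highest CPM was 474 times the lowest for Irf7, 24.7 times for Stat2, 9.69 times for Irf9 and 4.47 times for Irf1, and in each the lowest value was the total RNA library of ADAR1i-124. Ifnar1 (9.47 times) and Ifnar2 (8.15 times) were lowest in the Z22 DMSO library instead. Tyk2 varied 4.13 times and was lowest in IgG, while Jak1 and Irf3 varied least, 1.73 and 1.70 times. ADAR1i-124 libraries thus hold the lowest level of their kind of RNA for Irf7, Stat2, Irf9 and Irf1 in total, J2 and Z22 RNA alike. The same held in J2 RNA for Ifnar1, Ifnar2, Jak1 and Tyk2, in Z22 RNA for Tyk2 and Irf3, and in total RNA for Jak1. For Irf1 in J2 RNA the intervals with ADAR1i-124 (22.5 to 27.7 CPM) and with DMSO (27.4 to 33.6 CPM) meet. Within the ADAR1i-124 libraries, Irf7 was lowest in total RNA (0.851 CPM), higher with J2 (13.3 CPM) and highest with Z22 (35.8 CPM).

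**Figure D5:**
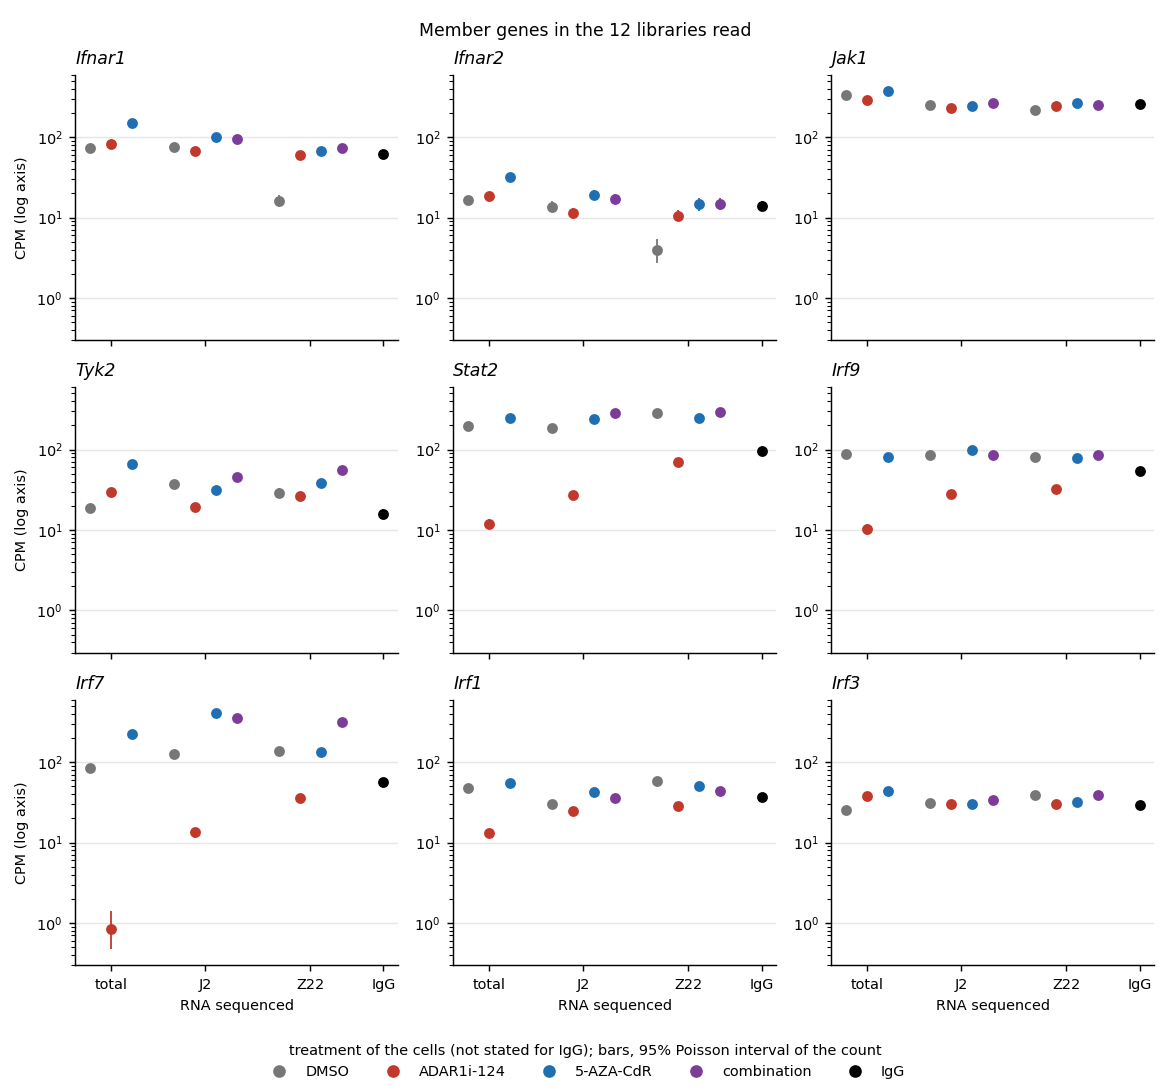
Each panel gives 1 gene in CPM on a log axis over the 12 libraries read, grouped by the RNA sequenced and coloured by treatment, with 95% Poisson intervals. The ADAR1i-124 points of Stat2, Irf9, Irf7 and Irf1 are the lowest within total, J2 and Z22 RNA, and Ifnar1 and Ifnar2 are lowest in the Z22 library of DMSO-treated cells.

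The similarity of patterns was described by Pearson's r of log2(CPM + 0.5) over the 12 libraries, with no test, since the points share libraries and a Z22 library with a large Gm42418 share. Stat2, Irf9 and Irf7 were close to each other, with r of 0.97 for Stat2 and Irf9 and 0.96 for each of the other pairs, and Irf1 had 0.90 with Stat2, 0.88 with Irf9 and 0.84 with Irf7. Ifnar1 and Ifnar2, both on chromosome 16, had 0.97 together but −0.05 and −0.03 with Stat2. Jak1 was nearer to the receptor chains (0.64 with Ifnar1 and 0.76 with Ifnar2), and Tyk2 was nearest to Irf3 (0.73). Of 8568 protein-coding genes averaging 10 CPM or more, those most like Stat2 were Uba7, Slfn8 and Trim12a (0.992, 0.984 and 0.981), and Uba7 codes for the enzyme that starts ISG15 conjugation. Those most like Irf9 were Xaf1, Sp100 and Trim12c (0.992, 0.984 and 0.984), and those most like Irf7 were Gbp9, Oas2 and Gbp4 (0.985, 0.984 and 0.983). Trim12a and Trim12c, and Gbp4 and Gbp9, have near copies, so reads could be divided among them. Irf1 was most like Oasl2, Uba7 and Mov10, with lower r (0.917, 0.916 and 0.914).

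The other members were most like genes with other roles. Ifnar1 was most like Atp11b, Rab5a and Uhrf2 (0.988, 0.981 and 0.981) and Ifnar2 most like Atp7a, Ndfip1 and Ghr (0.977, 0.976 and 0.973). Of the genes compared, 465 for Ifnar1 and 568 for Ifnar2 had r above 0.9, so this pattern was common. Jak1 was most like Wipi1, Maged1 and Pik3r4 (0.963, 0.961 and 0.959), and Tyk2 most like Nr1h2, Man2b2 and Arhgap39 (0.987, 0.962 and 0.957). Irf3 had a single gene with r above 0.9, Plekhh3 (0.918), followed by Ltbp4 (0.893) and Speg (0.881), while 68, 70 and 77 genes were above it for Stat2, Irf9 and Irf7.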

How the data were processed

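The RNA of YUMM1.7 cells was sequenced in 13 libraries, 1 per condition, and 12 were read. The authors mapped the reads with STAR in snakePipes to the mouse genome (GRCm38, named mm10 in the submitters' processing notes) and deposited raw counts per gene, with no normalization. The counter used within this pipeline and its strand setting are not given in the sources used here.

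Counts were divided by the library total over all 54532 genes to give CPM, and log2 was taken after adding 0.5 CPM. Genes averaging 1 CPM or more over a compared pair were compared, and those past 2-fold were counted. No test was run and no p-value is given, since no condition was repeated. The interval of a log2 ratio is the 95% Wilson interval of the share of the pair's reads, rescaled by the totals and without the added 0.5 CPM, so for low genes it can lie beyond the value. Levels have exact Poisson intervals. Both cover counting error only. Gene positions and exon lengths came from GENCODE M21, another release than the study names, and promoter windows from RefSeq. The ratio and interval calculations were tested on simulated data.

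The members, the pathway and marker lists and the comparisons were chosen with earlier results of these data known. Named genes are the members, the 3 most similar genes to each, genes that overlap a member, and at most 4 genes of a list with the largest changes in a total RNA comparison. Tbk1, Ifnb1, Ddx3y, Kdm5d, Gm42418 and the cell type markers named were outside this rule and were chosen once their values were known. The comparison of the combination with each compound alone was added after the data were seen. Alternatives were edgeR's TMM factors and DESeq2's size factors, each computed within one kind of library, totals over protein-coding genes or without the 20 most counted genes, an added 0.1 or 2 CPM in place of 0.5, other filters and a 4-fold line. Python 3.11.15 with numpy 2.4.6, pandas 2.3.3, scipy 1.17.1 and matplotlib 3.10.9 was used, and scaling factors came from DESeq2 1.42.0 and edgeR 4.0.16 under R 4.3.3.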

Additional observations from a re-analysis of the deposited data

Results flagged for a closer look

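Tyk2 moved in opposite directions with ADAR1i-124 in total RNA and J2 RNA, with log2 changes against DMSO of 0.63 and −0.94. With 1 library each, the difference between these changes was not tested.

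The total RNA library of the combination, left out of the comparisons because its counts follow the other strand, still held counts on members. Irf3 had 81 counts there (65.0 CPM, 51.6 to 80.8), above the 25.4 CPM of the DMSO library. Tyk2 had 28 counts (22.5 CPM), and its interval of 14.9 to 32.5 CPM includes the 18.9 CPM of the DMSO library. Irf7 had 77 counts (61.8 CPM), below the 83.6 CPM of that library, and the other 6 members had 0 to 10 counts. Counts that follow the opposite strand are not read here as levels of the members. On the other strand Bcl2l12 shares 88 exon bases with Irf3 and had 47 counts in this library. Phrf1 shares 45 with Irf7 and had 34 counts. This library has 1245894 counts in all, and the antisense gene 1700084C06Rik, which overlaps Tyk2, had 216 counts in it against 1 in each of the other total RNA libraries.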

How the results depend on the processing

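No value of a member changed sign in total RNA under any alternative run. Of 180 member values in all comparisons, 32 changed sign under some alternative, and the largest of these was 0.41 on the log2 scale in size. TMM scaling moved 87 of the 180 values outside their counting interval, DESeq2 size factors 81, totals over protein-coding genes 49, and totals that leave out the 20 most counted genes 40. A pseudocount of 2 CPM moved 3 and one of 0.1 CPM moved 0.

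Member values past 2-fold in Z22 RNA against DMSO were 7 higher and 4 lower over the 3 treatments. They were 4 higher and 11 lower with TMM scaling and 3 higher and 11 lower with DESeq2 size factors. The shares of all genes lower were 4.1% to 5.13%, 14.5% to 16.6% with TMM scaling and 17.4% to 18.3% with DESeq2 size factors. Those of genes higher were 42.9% to 52.1%, 21.5% to 23.4% and 18.9% to 21.7% in the same order. These scalings brought the median over all genes with ADAR1i-124 from 0.81 to 0.15 and 0.02. With only genes averaging 10 CPM or more, the higher values in Z22 RNA against DMSO were 4, beside 41.1% to 49.1% of all genes. The lower values against IgG in Z22 RNA were 1 instead of 2, beside 1.47% to 47.3% of all genes. Both differ because fewer members passed that filter. With a 4-fold line the 3 higher members with 5-AZA-CdR in total RNA became 0, beside 5.98% of all genes. With that line J2 RNA against IgG gave 2 higher and 1 lower (7 and 2 at 2-fold). Of all genes, 0.573% to 5.32% were at least 4-fold higher there and 0.573% to 0.961% lower. Z22 RNA against IgG gave 1 and 0 (8 and 2 at 2-fold), with 0.480% to 5.70% of all genes higher and 0.0232% to 19.96% lower. J2 RNA against DMSO gave 0 higher (2 at 2-fold), with 0.821% to 3.02% of all genes higher. Z22 RNA against DMSO gave 2 and 1, with 13.2% to 19.95% of all genes higher and 0.926% to 1.02% lower. The combination against each compound alone gave 4 higher (9 at 2-fold), with 0.211% to 5.33% of all genes higher.

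No paired analysis was possible because the groups compared here have 1 library each and so share fewer than 2 replicate numbers. A comparison of Z22 with J2, paired over the 4 treatments, was not run. With 1 library per condition no replicate was left out, and the spread between libraries of a condition is not known. The Z22 DMSO library, with 34.9% of its counts on Gm42418, enters every Z22 comparison against DMSO and 1 of those against IgG. At these depths 3 counts were 0.0868 to 0.367 CPM, so Irf7 with ADAR1i-124 in total RNA (15 counts) was detected and Ifnb1 was at or near the limit.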

Other observations

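Of genes with the letters GAAANNGAA in a promoter window, 125 of 786 (15.9%) were at least 2-fold lower with ADAR1i-124 in total RNA, against 578 of 8398 (6.88%) of genes without them. For TTCNNNGAA the shares were 9.80% of 755 genes with it and 7.46% of 8429 without. With 5-AZA-CdR the shares of lower genes were 8.37% with GAAANNGAA and 9.50% without, and those of genes at least 2-fold higher were 19.1% and 16.4%. With ADAR1i-124 the shares of higher genes were 6.49% and 7.86%. Of the members, Stat2 is in the first set and Irf7 and Irf9, which were also low, are not. These shares are descriptions of 1 library against 1 library, and no test was run.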
